A study of Homo sapiens with 3 samples.

Results

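Chromosome 21 carried 1332 of the 96697 H3K27ac peaks, 457 of the 36996 H3K4me3 peaks and 14 of the super-enhancers that the authors called in KBM7 cells, with 518 super-enhancers on the other chromosomes. The members were all rows of the H3K27ac list on this chromosome, taken with the rows of the H3K4me3 list and of the super-enhancer list there, so the members were chosen by the authors' peak calls and by position, and their presence in the lists is a description. KBM7 is an established human line from chronic myeloid leukaemia with a nearly haploid genome, used here wild-type and untreated. Chromatin was precipitated once with the Abcam antibody ab4729 against H3K27ac and once with the Millipore antibody 07-473 against H3K4me3, and an input library without antibody was also sequenced. Each mark has 1 library, so no value below has a replicate error, and the 95% Wilson intervals given beside shares cover counting error only.

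H3K27ac, acetylation of lysine 27 of histone H3, is laid down at active promoters and active enhancers. H3K4me3, trimethylation of lysine 4, sits mainly at promoters, so a stretch with H3K27ac and no H3K4me3 is commonly read as an enhancer candidate. Super-enhancers are clusters of such stretches joined into one region and ranked by total signal, and in blood cells they often lie near genes of lineage factors. Chromosome 21 holds several of these factors, among them RUNX1, needed for definitive blood formation, and the ETS family members ERG and ETS2, beside the interferon receptor cluster, the kinase gene DYRK1A and a large block of keratin-associated protein genes.

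Promoter sequences are shown for genes on which the description turns, as RefSeq lists them on GRCh38.p14 (250 bases before and 50 after a listed start, 5′ to 3′ on the gene's strand). Capitals mark 4 short motifs searched on both strands, the ETS core CCGGAA, the RUNX core TGTGGT, the GATA core AGATAA and the TATA box TATAAA. A match is a run of letters, not evidence of binding. RUNX1 is shown at its proximal start (chr21:34888650-34888949, minus strand), inside the widest H3K4me3 interval of the chromosome. ERG is shown at an internal start (chr21:38498428-38498727, minus strand) inside a 12732 bp H3K27ac interval, and SAMSN1, which encodes an adaptor protein of blood cells, at an internal start (chr21:14546266-14546565, minus strand). ETS2 (chr21:38804933-38805232, plus strand), HMGN1 (chr21:39349039-39349338, minus strand), a nucleosome-binding protein gene, and PKNOX1 (chr21:42974312-42974611, plus strand), a homeobox factor gene, lie in 3 of the strongest H3K27ac peaks. KRTAP24-1 (chr21:30282901-30283200, minus strand), a hair keratin-associated protein gene, is shown from the unmarked block. It was picked as the first such gene along the chromosome whose listed promoter holds TATAAA, so that match follows from the choice.
RUNX1: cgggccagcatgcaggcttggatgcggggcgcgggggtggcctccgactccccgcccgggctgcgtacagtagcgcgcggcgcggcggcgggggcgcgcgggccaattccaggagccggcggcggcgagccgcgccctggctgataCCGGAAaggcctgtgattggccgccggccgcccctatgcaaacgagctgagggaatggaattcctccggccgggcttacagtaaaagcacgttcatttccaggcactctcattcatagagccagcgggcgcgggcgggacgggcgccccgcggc
ERG: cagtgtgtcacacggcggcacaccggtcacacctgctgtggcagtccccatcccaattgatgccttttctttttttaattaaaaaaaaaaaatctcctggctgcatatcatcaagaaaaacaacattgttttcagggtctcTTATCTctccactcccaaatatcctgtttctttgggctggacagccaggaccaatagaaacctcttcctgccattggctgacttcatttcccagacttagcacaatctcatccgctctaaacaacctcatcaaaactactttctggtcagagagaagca
SAMSN1: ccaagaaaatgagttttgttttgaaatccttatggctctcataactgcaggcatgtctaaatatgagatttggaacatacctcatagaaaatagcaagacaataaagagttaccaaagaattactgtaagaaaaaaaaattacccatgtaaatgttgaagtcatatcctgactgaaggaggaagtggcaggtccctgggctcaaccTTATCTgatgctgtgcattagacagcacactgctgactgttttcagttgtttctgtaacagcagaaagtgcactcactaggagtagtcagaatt
ETS2: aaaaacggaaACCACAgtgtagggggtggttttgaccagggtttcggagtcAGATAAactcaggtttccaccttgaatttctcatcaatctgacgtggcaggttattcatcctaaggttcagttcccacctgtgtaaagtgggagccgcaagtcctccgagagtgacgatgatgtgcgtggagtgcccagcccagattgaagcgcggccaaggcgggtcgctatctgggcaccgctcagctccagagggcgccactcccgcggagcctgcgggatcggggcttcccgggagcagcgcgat
HMGN1: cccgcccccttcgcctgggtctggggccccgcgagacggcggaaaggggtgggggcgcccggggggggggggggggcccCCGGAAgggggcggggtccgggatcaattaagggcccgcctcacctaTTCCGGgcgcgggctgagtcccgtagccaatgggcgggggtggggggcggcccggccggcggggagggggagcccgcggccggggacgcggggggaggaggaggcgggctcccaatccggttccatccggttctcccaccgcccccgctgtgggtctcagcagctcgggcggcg
PKNOX1: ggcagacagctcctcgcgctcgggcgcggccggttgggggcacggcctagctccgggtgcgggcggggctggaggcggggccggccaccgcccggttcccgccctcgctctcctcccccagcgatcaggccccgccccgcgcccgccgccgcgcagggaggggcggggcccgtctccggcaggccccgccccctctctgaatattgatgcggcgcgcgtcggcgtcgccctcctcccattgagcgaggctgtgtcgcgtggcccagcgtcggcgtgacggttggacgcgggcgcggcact
KRTAP24-1: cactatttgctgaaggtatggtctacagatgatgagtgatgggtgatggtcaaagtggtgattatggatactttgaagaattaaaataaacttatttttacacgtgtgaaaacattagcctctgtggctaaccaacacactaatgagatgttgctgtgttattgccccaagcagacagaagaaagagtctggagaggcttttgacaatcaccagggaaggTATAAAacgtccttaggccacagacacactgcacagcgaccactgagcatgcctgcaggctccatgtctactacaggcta

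The printed promoters differed widely in base composition. Those of HMGN1, PKNOX1 and RUNX1 had 79.3%, 78.7% and 72.0% G+C with 34, 46 and 40 CpG dinucleotides. The internal starts of ERG and SAMSN1, also within wide intervals of both marks, had 44.3% and 38.3% G+C with 4 and 0 CpG, and KRTAP24-1 had 43.7% with 3. Over the 257 listed promoters of protein-coding genes on the chromosome, the 127 with both marks within 1 kb had a median of 30 CpG per 300 bases and the 120 with neither had a median of 5. Of those 120, the 45 keratin-associated promoters had a median of 2 and the other 75 a median of 9. The 6 with H3K4me3 alone had a median of 45.5, and the 4 with H3K27ac alone had 5. Outside coding genes the order was the same for the larger classes, with a median of 22 CpG at 36 promoters with both marks and 4 at 166 with neither.

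The ETS core was present in 46 of the 127 protein-coding promoters with both marks (36.2%) and in 7 of the 120 with neither (5.83%, or 9.33% of the 75 that are not keratin-associated), against 17.2% of all 35116 promoters of the table. The letters of this core contain a CpG, and the classes differ in CpG as given above. The RUNX core was in 9.45% of promoters with both marks and 15% of those with neither, but in 10.7% of the latter without keratin-associated genes, against 13.1% of all promoters. The GATA core was in 7.87% and 17.5% (17.3% without keratin-associated genes), against 10.3% of all promoters. TATAAA was in 7.09% of promoters with both marks and in 34 of the 45 listed promoters of keratin-associated protein genes (75.6%), against 11.5% of all promoters. These are shares of listed promoters, several of which can belong to 1 gene.

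Chromosome 21 had the fewest peaks of either mark among the 23 chromosomes compared (1 to 22 and X), and also the fewest protein-coding genes in the gene table used (238). Per protein-coding gene it had 5.60 H3K27ac peaks, the sixth highest value, within a range of 3.36 to 6.04 on the others. The median H3K27ac peak had a fold of 4.35 over the expected background (range 2.27 to 51.8), a summit of 19 fragments (10 to 241) and a width of 394 bp. The median H3K4me3 peak had a fold of 8.36 (2.99 to 95.8), 34 fragments (10 to 322) and a width of 681 bp. The median expected background at H3K27ac summits was 3.63 fragments, equal to the median of the other chromosomes, whose highest value was 6.91 on chromosome 8.

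A smaller share of H3K27ac peaks than on any other chromosome lay at promoters. Of the 1332 peaks, 385 overlapped an H3K4me3 peak by at least 1 bp (28.9%, interval 26.5% to 31.4%), beside 36.1% on the other chromosomes together, where the single values ran from 31.6% on chromosome 3 to 46.8% on chromosome 19. On chromosome 22, which is similar in size, it was 37.0%. Within 1 kb of a protein-coding start lay 149 peaks (11.2%, interval 9.60% to 13.0%), beside 16.7% elsewhere. For H3K4me3 the share at such starts was 26.7% (122 of 457), beside 34.6%, also the lowest of the 23 chromosomes. In the other direction, 393 of the 457 H3K4me3 peaks overlapped H3K27ac (86.0%, interval 82.5% to 88.9%), beside 83.8% elsewhere, which is within the interval. Neighbouring peaks are not independent, which these intervals do not allow for, and the intervals do not measure spread between replicates.

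Peaks that overlapped H3K4me3 were stronger and wider than the others. The 385 overlapping H3K27ac peaks had a median fold of 12.3, 65 fragments and 1266 bp, whereas the 947 without H3K4me3 had 3.92, 17 fragments and 300 bp. In the highest quartile of the chromosome's H3K27ac peaks by fold, 82.9% overlapped H3K4me3, beside 89.6% on the other chromosomes, and in the lowest quartile 6.21%, beside 11.0%. The share was thus lower than elsewhere in both quartiles. The quartile limits were set separately for chromosome 21 and for the other chromosomes (median folds 4.35 and 4.47), so the quartiles are not matched by fold.

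Along the chromosome the peaks were unevenly placed. In 47 bins of 1 Mb, 17 held no H3K27ac peak, 11 of them below 14 Mb, the region of the short arm and centromere, where 20 H3K27ac and 20 H3K4me3 peaks were called in all. The 5 bins from 0 to 5 Mb had no peak of either mark and no coding start among the genes used. How much of the sequence below 14 Mb is assembled and can hold placed reads was not examined, so empty bins there are not read as absence of the mark. In the 33 bins from 14 Mb onward the median was 30 peaks and 6 bins were empty. The 18 bins from 14 to 32 Mb held 346 peaks (26.0% of the chromosome's, 19.2 per bin) and 68 coding starts, 22 of them with both marks. The 15 bins from 32 to 47 Mb held 966 peaks (72.5%, 64.4 per bin) and 150 coding starts, 84 of them with both marks.

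**Figure D1:**
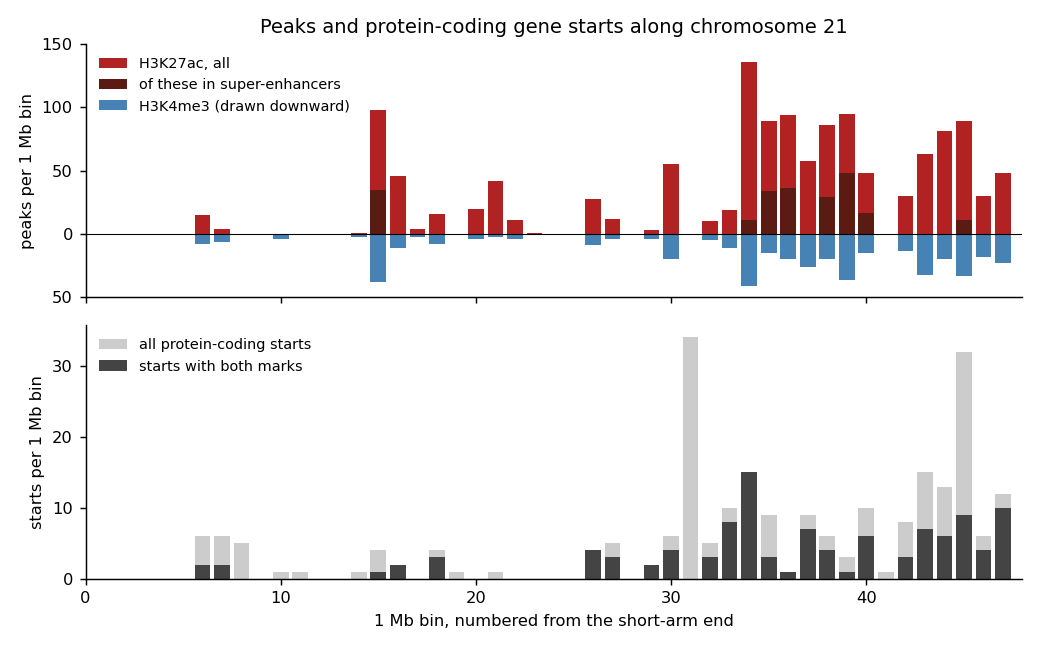
Peaks (upper) and protein-coding gene starts (lower) in each of 47 bins of 1 Mb, numbered from the short-arm end; H3K4me3 bars are drawn downward, dark red marks H3K27ac peaks inside super-enhancers, dark grey marks starts with both marks within 1 kb. Bins 34, 15 and 39 have the most H3K27ac peaks (136, 98 and 95), and bin 31 has 34 gene starts and no H3K27ac peak.

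The 3 bins with the most H3K27ac peaks held 24.7% of them. The first was the bin from 33 to 34 Mb with 136 peaks, 41 H3K4me3 peaks and 15 protein-coding starts, all 15 with both marks. It contains the interferon receptor genes IFNAR2, IL10RB, IFNAR1 and IFNGR2, the oligodendrocyte factor genes OLIG1 and OLIG2, and SON, GART, DONSON and ITSN1. The second was the bin from 14 to 15 Mb, with 98 peaks and 38 H3K4me3 peaks but only 4 coding starts, of which HSPA13, a heat-shock protein gene, had both marks. That bin holds SAMSN1 and 4 super-enhancers assigned to it, which contained 35 of the 98 peaks. The third was the bin from 38 to 39 Mb with 95 peaks, 48 of them in super-enhancers, and 3 coding starts, among them ERG and ETS2. The next bin in order, from 35 to 36 Mb, had 94 peaks and a single coding start, the distal start of RUNX1.

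Peak number and gene number were compared across bins. Over the 33 bins from 14 Mb, the Spearman correlation of H3K27ac peak number with coding starts was 0.53 and with starts that had both marks 0.63, while with the number of H3K4me3 peaks it was 0.94. These are descriptions over neighbouring bins of 1 library per mark. The contrast is visible in 2 bins with many starts. The bin from 30 to 31 Mb had 34 coding starts, CLDN8, CLDN17 and 32 keratin-associated protein genes, with no H3K27ac peak and 1 H3K4me3 peak. The bin from 44 to 45 Mb had 32 coding starts, 9 with both marks, and 89 H3K27ac peaks. Its starts without marks include a second group of keratin-associated protein genes, from KRTAP10-1 to KRTAP10-12.

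Long stretches had no H3K27ac peak at all. The longest run of empty bins was bins 8 to 13 (7 to 13 Mb), with 4 H3K4me3 peaks and 7 coding starts, among them TPTE. This run lies in the region where the placing of reads was not examined. On the long arm the widest distance between neighbouring H3K27ac peaks was 2.78 Mb (chr21:22515586-25298255), with no coding gene inside, followed by 2.04 Mb with ADAMTS5, which encodes a cartilage-degrading protease. Then came 1.96 Mb (chr21:29699130-31659020) with the first keratin-associated block, the claudin genes and TIAM1, and 1.95 Mb (chr21:39446311-41395312) with DSCAM, a neuronal adhesion gene, PCP4, BACE2, B3GALT5, IGSF5 and FAM3B. A 1.69 Mb stretch held CHODL and the intestinal protease gene TMPRSS15. A shorter gap of 0.61 Mb (chr21:43046140-43658619) in the gene-rich end held CBS, U2AF1, CRYAA and SIK1, which have near-identical copies on the short arm and are taken up below.

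Of the 238 protein-coding genes, 110 had both marks within 1 kb of the start (46.2%, interval 40.0% to 52.6%), beside a background of 59.1% on the other chromosomes, and this was the lowest of the 23 values. H3K27ac with or without H3K4me3 was present at 115, beside a background of 61.4%, and H3K4me3 at 122, beside 65.5%. H3K27ac alone was present at 5 (2.10%, beside 2.33%), H3K4me3 alone at 12 (5.04%, beside 6.37%) and neither at 111 (46.6%, beside 32.2%). The 2 shares with 1 mark were near the background. The 49 keratin-associated protein genes had neither mark, and without them 110 of 189 genes had both (58.2%, interval 51.1% to 65.0%), beside 59.2% on the other chromosomes without such genes. That exclusion was chosen after the values were seen. The start is the 5′ end of the RefSeq record, and both ends were used for 55 genes whose strand the tables used here do not give. When every listed start was used, 116 genes had both marks.

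At the 110 genes the H3K27ac fold ranged from 4.08 at JAM2, a junctional adhesion gene, to 51.8 at HMGN1, with a median of 24.9. The H3K4me3 fold ranged from 3.40 at EPCIP to 95.8 at PKNOX1, with a median of 70.0. The Spearman correlation between the 2 folds was 0.52 over these genes, a description across genes that share the libraries and, for 29 of them, share 1 of 14 H3K27ac intervals with a neighbour. ChIP reads carry no strand, so a peak between 2 divergent genes, such as ATP5PF and GABPA (H3K27ac 40.3 and H3K4me3 57.3 at both) or PIGP and TTC3 (26.3 and 62.5), cannot be assigned to either.

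**Figure D2:**
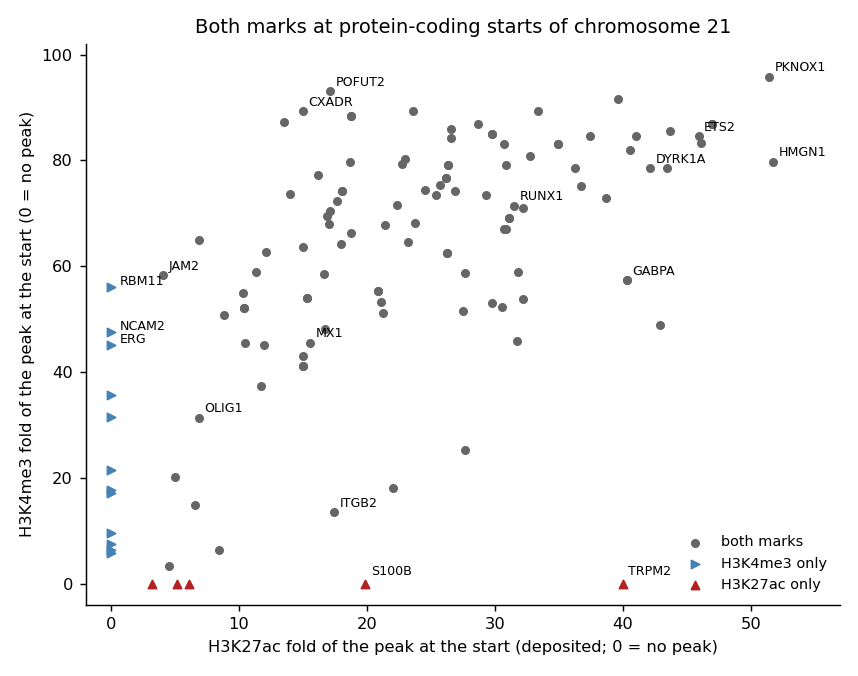
Fold of the H3K27ac peak (horizontal axis) and of the H3K4me3 peak (vertical axis) within 1 kb of each protein-coding start of chromosome 21; grey points are the 110 genes with both marks, blue triangles the 12 with H3K4me3 only and red triangles the 5 with H3K27ac only, drawn at 0 on the missing axis. HMGN1 and PKNOX1 lie highest in H3K27ac (51.8 and 51.4), and TRPM2 and S100B are strong in H3K27ac (40.0 and 19.9) with no H3K4me3 peak within 1 kb of the start used.

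The 10 H3K27ac peaks of highest fold all overlapped H3K4me3 and all lay within 1 kb of a listed coding start. They were at HMGN1 (51.8), PKNOX1 (51.4), PCNT with C21orf58 (46.9), DIP2A (46.1), SLC19A1 (46.1), ETS2 (45.9), the proximal start of RUNX1 (45.2), ZBTB21 (43.7), VPS26C (43.5) and PRDM15 (42.9). PCNT encodes the centrosome scaffold pericentrin, SLC19A1 the reduced folate carrier and VPS26C a subunit of an endosomal retrieval complex. The 10 H3K4me3 peaks of highest fold shared PKNOX1 (95.8), SLC19A1 (89.3) and PCNT (86.9) with that set. The others were at POFUT2 (93.1), SCAF4 (91.7), RRP1 (89.4), CXADR (89.3), SOD1 (89.3), CFAP298 (88.4) and RCAN1 (87.2). At several of these the H3K27ac fold was below the median of marked starts, with 17.1 at POFUT2, 15 at CXADR, 18.8 at CFAP298 and 13.5 at RCAN1.

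The 5 widest H3K27ac intervals were 13238 bp in ERG (fold 37.7), 13223 bp in SAMSN1 (19.7), 12732 bp at the internal start of ERG (22.8), 10350 bp at the internal start of SAMSN1 (19.8) and 9656 bp in a gene-poor stretch (chr21:19992218-20001873, fold 32.3), 999 kb from NCAM2, the nearest coding gene. The last overlapped an H3K4me3 peak of fold 8.31. The 5 widest H3K4me3 intervals were at RUNX1 (9658 bp, fold 73.7), DYRK1A (6979 bp, 78.5), ERG (6479 bp, 37.6), PCNT (6098 bp, 86.9) and NRIP1, a nuclear receptor corepressor gene (6094 bp, 75.2). ERG thus had 2 of the 5 widest H3K27ac intervals and 1 of the 5 widest H3K4me3 intervals.

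Of 9 factor and cofactor genes grouped in 1 list, 8 had both marks at the record start (88.9%, interval 56.5% to 98.0%), against 46.2% of all coding genes of the chromosome and 59.1% elsewhere, and the 8 had a median H3K27ac fold of 42.0, against 23.8 at all 115 starts with H3K27ac. Highest were PKNOX1 (51.4 for H3K27ac and 95.8 for H3K4me3), ETS2 (45.9 and 84.6) and ZBTB21 (43.7 and 85.6). The iron and haem-responsive repressor gene BACH1 had 41.1 and 84.6, GABPA 40.3 and 57.3, and NRIP1 36.7 and 75.2. ERG was the exception, with H3K4me3 alone (45.1) at its record start, although its internal start had 22.8 and 37.6. The list does not hold every factor gene of the chromosome, since SIM2, OLIG1, OLIG2 and AIRE are counted in the neural and immune lists below, and it was drawn up with earlier results of these data known, so the count is a description.

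Among 8 genes of chromatin and nucleosome proteins, 6 had both marks (75%, interval 40.9% to 92.8%), an interval that includes both the 46.2% of the chromosome and the 59.1% elsewhere. Highest were HMGN1 (51.8 and 79.7), the arginine methyltransferase gene PRMT2 (32.2 and 71.0) and HEMK2, a methyltransferase gene also called N6AMT1 (29.7 and 53.0). CHAF1B, a subunit of the assembly factor that loads histones at replication forks, had 16.7 and 48.2. BRWD1 had neither at the record start, but 42.5 and 65.2 at another listed start. DNMT3L, a germ-cell cofactor of DNA methylation, had a weak H3K27ac peak (3.16) and no H3K4me3.

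Of 13 interferon and immune genes, 8 had both marks (61.5%, interval 35.5% to 82.3%), beside 46.2% and 59.1%, so their count was near the background. The cluster of cytokine receptor chains was marked throughout, with H3K27ac folds of 36.3 at IFNGR2, 34.9 at IFNAR2, 30.7 at IL10RB and 25.7 at IFNAR1, and H3K4me3 folds of 78.6, 83.1, 83.1 and 75.3. The strand of IFNAR2 was not given, so its values are the strongest at either record end. Its H3K4me3 value comes from the interval chr21:33265515-33267764, which also holds the start of IL10RB. The antiviral GTPase gene MX1 had 15.6 and 45.5, whereas its neighbour MX2 had neither at its start. ITGB2, the shared beta chain of leukocyte integrins, had H3K27ac at 17.4 and H3K4me3 at 13.5, low among the marked starts. Its strand was not given, so these are values at the record ends. A stronger H3K4me3 interval (32.9, chr21:44918955-44921351) lay inside the gene, at the non-coding gene ITGB2-AS1. Neither mark was at the starts of UBASH3A, a gene known from T cells, AIRE, known from the thymus, or ICOSLG, which is also in the list of genes with a short-arm copy described below. SAMSN1 had neither at its record start and both at internal starts.

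The list called kinases and signalling, which also holds trafficking and other genes such as VPS26C, SYNJ1 and PIGP, had both marks at 9 of 12 starts (75%, interval 46.8% to 91.1%, which includes 59.1%). Highest were VPS26C (43.5 and 78.5), DYRK1A, a dosage-sensitive kinase gene (42.1 and 78.5), and ITSN1, an endocytic scaffold gene (26.4 and 79.2). TIAM1, which encodes an exchange factor for Rac, and the salt-inducible kinase gene SIK1 had neither. SIK1 is also in the list of genes with a short-arm copy described below, where the placing of reads limits the reading. PDE9A, a phosphodiesterase gene, had H3K4me3 alone (31.5).

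Of 19 genes of energy and metabolism, 15 had both marks (78.9%, interval 56.7% to 91.5%), beside 46.2% on the chromosome and 59.1% elsewhere, the latter within the interval. Highest were ATP5PF, an ATP synthase subunit gene (40.3 and 57.3), AGPAT3, an acyltransferase gene (37.4 and 84.6), and SOD1, superoxide dismutase (33.4 and 89.3). Without both at the record start were CBS, SLC37A1, SLC19A1 and FTCD. SLC37A1 (18.9 and 78.1) and SLC19A1 (46.1 and 89.3) had both at another listed start, while CBS, of the transsulfuration pathway, and FTCD, a liver enzyme of histidine breakdown, had neither at any. CBS is also among the genes with a short-arm copy described below.

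The list of RNA and protein housekeeping genes had both marks at 21 of 23 starts (91.3%, interval 73.2% to 97.6%), beside 46.2% and 59.1%. Highest were PCNT (46.9 and 86.9), TRAPPC10, a vesicle tethering gene (40.5 and 81.9), and SCAF4, which takes part in transcript termination (39.6 and 91.7). PWP2, a ribosome biogenesis gene, had H3K4me3 alone and weakly (9.58). The short-arm record LOC102724159 had both marks at its start, with H3K4me3 at 20.2. How any reads that fit both PWP2 and LOC102724159 were placed was not tested, so the weak value is not read as a property of PWP2. U2AF1, the small subunit of the factor that recognises 3′ splice sites, had neither. It has a short-arm copy described below, so this is not read as absence of the marks.

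Of 11 neural genes, 3 had both marks (27.3%, interval 9.75% to 56.6%, which includes the 46.2% of the chromosome), APP (22.8 and 79.4), OLIG2 (11.98 and 45.2) and OLIG1 (6.83 and 31.4), and 4 had H3K4me3 alone, NCAM2 (47.6), SIM2 (21.6), GRIK1 (7.45) and KCNJ6 (5.82). S100B, a calcium-binding protein of glia, had H3K27ac alone within 1 kb of its start (19.9), and DSCAM, KCNJ15 and CHODL had neither. Of 17 epithelial and matrix genes, 3 had both marks (17.6%, interval 6.19% to 41.0%), COL6A1 (17.1 and 70.5), COL6A2 (16.2 and 77.2) and ADAMTS1 (10.5 and 45.5), COL18A1 had H3K4me3 alone (17.1), and 13 had neither, among them the trefoil factor genes TFF1, TFF2 and TFF3 and the prostate protease gene TMPRSS2. All 49 keratin-associated protein genes had neither, and a count of 0 of 49 leaves an upper Wilson bound of 7.27%.

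**Figure D3:**
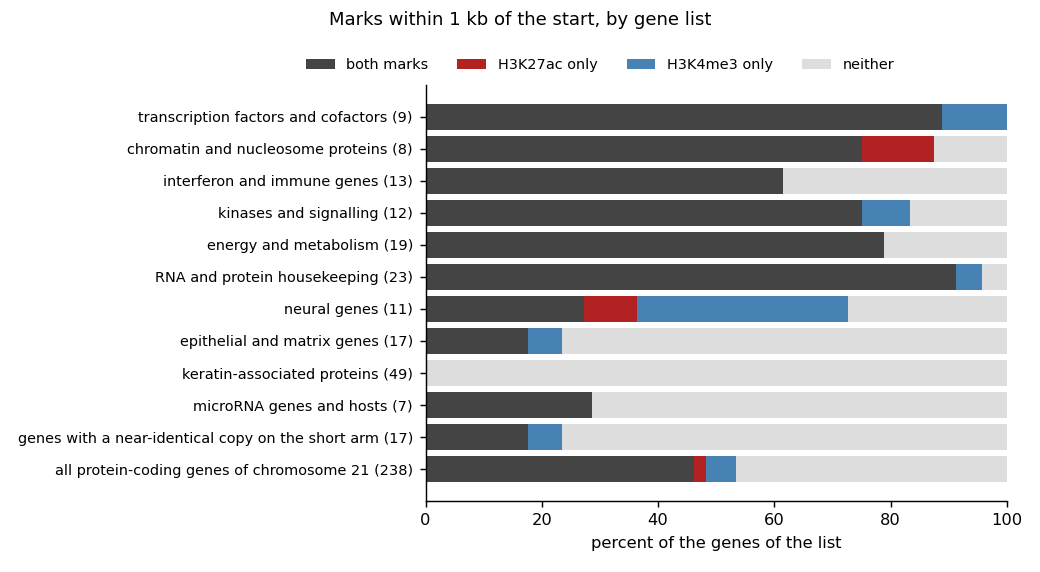
Percent of the genes of each list, with the number of genes in brackets, that had both marks, 1 mark or neither within 1 kb of the record start on chromosome 21. Housekeeping and factor genes reach 91.3% and 88.9% with both marks, the keratin-associated genes 0% and all protein-coding genes 46.2%.

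At 17 coding starts only 1 of the marks was called within 1 kb, in shares near the background given above. The strongest starts with H3K4me3 alone were RBM11, an RNA-binding protein gene (56.1), NCAM2 (47.6), ERG (45.1), BACE2 (35.6) and PDE9A (31.5), and their intervals were 1136 to 1648 bp wide. The 5 starts with H3K27ac alone were TRPM2, a calcium channel gene of myeloid cells (40.0 over 4813 bp), S100B (19.9), ABCG1 (6.05), MAP3K7CL (5.19) and DNMT3L (3.16). No H3K27ac interval of the chromosome that was free of H3K4me3 had a fold above 17.2. The intervals of TRPM2 and S100B thus overlapped H3K4me3 farther than 1 kb from the start used. TRPM2 had both marks when all its listed starts were used.

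MicroRNA genes are given with their mature 5p sequences from RefSeq, since 4 of them lie in 2 host transcripts with different marks. Capitals mark the seed, bases 2 to 8.
hsa-miR-155-5p: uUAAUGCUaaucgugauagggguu
hsa-miR-99a-5p: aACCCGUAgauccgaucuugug
hsa-let-7c-5p: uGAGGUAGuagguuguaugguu
hsa-miR-125b-5p: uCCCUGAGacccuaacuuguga

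The 4 seeds are all different. miR-155, a microRNA of activated blood cells, comes from the host transcript MIR155HG, whose start had H3K27ac at 31.7 and H3K4me3 at 47.0. The microRNA gene itself (mature sequence at chr21:25573983-25574006) lay within 1 kb of weaker peaks of both marks (6.26 and 4.64). The miR-99a, let-7c and miR-125b-2 genes lie in MIR99AHG, which had neither mark at its record start and H3K27ac alone (5.73) at another listed start, with 4 H3K27ac peaks in its body. These 3 genes and MIR802 had no peak of either mark within 1 kb. In all, 2 of 7 entries of this list had both marks (28.6%, interval 8.22% to 64.1%). That interval includes the 46.2% of coding genes and the 16.1% of long non-coding RNA genes of the chromosome. The 2 entries are MIR155 and its own host MIR155HG, so they stand for 1 locus.

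Genes with a near-identical copy on the short arm need a separate reading, because reads from one copy can be placed at the other and the copies cannot be told apart where their bases agree. U2AF1 on the long arm had neither mark at its start, while its copy on the short arm, U2AF1L5 (listed as LOC102724594), had H3K27ac at 15 and H3K4me3 at 41.0. Their listed promoters, U2AF1 at chr21:43107521-43107820 and U2AF1L5 at chr21:6499199-6499498, both on the minus strand, are shown because they differ at 1 of 300 bases, in capitals. The substitution from U2AF1 to U2AF1L5 is A262C, with positions counted from the 5′ end of the printed sequence.
U2AF1: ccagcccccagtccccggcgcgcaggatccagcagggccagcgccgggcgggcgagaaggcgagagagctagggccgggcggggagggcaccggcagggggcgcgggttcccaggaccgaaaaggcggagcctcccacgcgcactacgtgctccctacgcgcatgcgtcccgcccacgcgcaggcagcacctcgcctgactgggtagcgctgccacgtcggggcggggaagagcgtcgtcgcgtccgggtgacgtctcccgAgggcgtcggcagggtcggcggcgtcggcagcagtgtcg
U2AF1L5: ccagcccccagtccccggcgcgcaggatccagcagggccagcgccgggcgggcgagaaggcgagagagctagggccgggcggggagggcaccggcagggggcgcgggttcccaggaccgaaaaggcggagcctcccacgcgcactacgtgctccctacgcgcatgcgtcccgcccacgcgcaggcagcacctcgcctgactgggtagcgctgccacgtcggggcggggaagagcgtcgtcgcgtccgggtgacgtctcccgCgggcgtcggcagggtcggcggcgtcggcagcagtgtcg

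In 2 further pairs the short-arm copy had a mark and the long-arm gene had none. SIK1 had neither mark and SIK1B (LOC102724428) had H3K4me3 alone (17.8), with 0 of 300 promoter bases different. GATD3 had neither and GATD3B (LOC102724023) had 6.58 and 14.9, with 3 bases different. CRYAA, a lens crystallin gene, had neither, and the peaks at its copy CRYAA2 (LOC102724652) are the intervals of U2AF1L5, which lie at 1 end of its record. CBS and CBSL, KCNE1 and KCNE1B, SMIM11 and SMIM11B, and C21orf140 (also called FAM243A) and its copy had neither mark at either place. The listed promoters of KCNE1 and SMIM11 differed from those of their copies at 209 and 207 of 300 bases, so their promoters as listed are not near-identical. ICOSLG, the remaining entry, had neither mark, and no short-arm record was paired with it here. PWP2 and LOC102724159, described above, were not in this list, and their promoters were not compared. The same limit on the placing of reads applies to them. In the 17 entries of this list, 3 had both marks, all 3 on the short arm. The sources used here do not say how reads that fit both copies were placed, and which copy carried the marks was not determined.

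The 14 super-enhancers of the chromosome were assigned by the authors to 8 genes, 3.36% of the coding genes of the chromosome beside a background of 2.23%, and 9 of the 14 went to SAMSN1 (4), RUNX1 (3) and ERG (2). The other targets were SLC5A3, VPS26C, DYRK1A, ETS2 and PTTG1IP. Together they spanned 477 kb and held 23.1% of the bases under H3K27ac peaks on the chromosome and 221 of its peaks (16.6%, interval 14.7% to 18.7%), beside 12.7% of peaks elsewhere. They were short, with a median of 28.3 kb (14.02 to 65.9), the lowest chromosome median of the 23, beside 42.4 kb for those of the other chromosomes. The H3K27ac signal was a median of 8.95 times the input signal (4.86 to 15.1), beside 8.09 elsewhere. By H3K27ac signal minus input signal their ranks over the whole genome ran from 100 to 523, with a median of 375, beside 264 elsewhere.

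**Figure D4:**
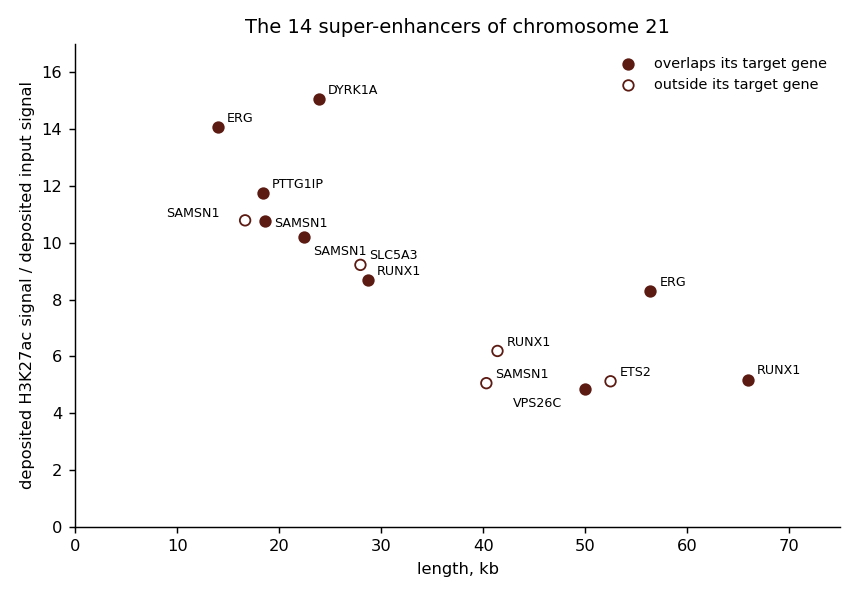
Length in kb (horizontal axis) and ratio of the deposited H3K27ac signal to the deposited input signal (vertical axis) of the 14 super-enhancers of chromosome 21, labelled by the authors' target gene; filled points overlap the target and open points do not. The region of DYRK1A has the highest ratio (15.1) and the first of RUNX1 is the longest (65.9 kb) with a ratio of 5.18.

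Every one of the 14 contained at least 1 H3K4me3 peak, and in each the H3K27ac peak of highest fold (14.8 to 42.1) overlapped H3K4me3. The same counts were not made for super-enhancers elsewhere. On the other chromosomes 89.6% of H3K27ac peaks in the highest quartile by fold overlapped H3K4me3, so these counts are not read as particular to chromosome 21. DYRK1A had the region of highest ratio (chr21:37355745-37379648, 23.9 kb, rank 162), which includes its start and where H3K27ac peaks covered 85.5% of the length and H3K4me3 42.5%. The region of PTTG1IP (chr21:44865232-44883646, 18.4 kb, ratio 11.7, rank 472) also includes the start of its target, and H3K4me3 covered 41.9%. The region of VPS26C (chr21:37209231-37259190, 49.96 kb, ratio 4.86) overlapped the gene 8.92 kb from its record start. Over the 14, H3K4me3 covered a median of 13.3% of the length, beside 14.8% elsewhere.

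The SAMSN1 regions lay on both sides of its 5′ end. Inside the gene were chr21:14516739-14539177 (22.4 kb, ratio 10.2, rank 209), with H3K27ac over 96.2% and H3K4me3 over 67.8% of its length, and chr21:14586233-14604814 (18.6 kb, ratio 10.8, rank 392). Upstream were chr21:14672208-14688864, at 12.8 kb from the gene (16.7 kb, ratio 10.8, rank 358), and chr21:14733469-14773768, at 74.1 kb (40.3 kb, ratio 5.06, rank 455). In the gene body were 44 H3K27ac and 21 H3K4me3 peaks. No mark lay at the record start, and both were at the internal starts 14546315 (19.8 and 56.9) and 14583402 (14.9 and 16.8).

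RUNX1 had 3 regions of 136 kb in all and the most H3K27ac peaks in the body of any gene of the chromosome (87, with 13 of H3K4me3). The longest region, chr21:34892459-34958358 (65.9 kb, rank 225), lay in the gene 3.76 kb upstream of the proximal start and was covered by H3K27ac over 37.0% and by H3K4me3 over 4.54%. The second, chr21:35025047-35053744 (28.7 kb, ratio 8.68, rank 296), includes the distal start. The third, chr21:35438174-35479559 (41.4 kb, ratio 6.19, rank 312), was 389 kb upstream of the gene. The proximal start 34888699 had an H3K27ac interval of 9458 bp (fold 45.2) and the H3K4me3 interval of 9658 bp (73.7), and the distal start 35049302 had 4004 bp (31.5) and 4263 bp (71.4). Both starts of RUNX1 were thus marked by both histone modifications.

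The H3K27ac peak of ERG nearest to its record start within the gene lay 136 kb downstream of it. Its record start had H3K4me3 alone (45.1 over 1367 bp) and the start at 38584945 had neither. The paired starts 38498477 and 38498504 lay in the H3K27ac interval of 12732 bp (22.8) and in an H3K4me3 interval of 6479 bp (37.6). Of the 2 regions, chr21:38431527-38487899 (56.4 kb, ratio 8.29) had rank 100, the best of the chromosome, and chr21:38375032-38389054 (14.02 kb, ratio 14.1, rank 421) was almost wholly the 13238 bp interval. ERG had 56 H3K27ac and 23 H3K4me3 peaks in its body.

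**Figure D5:**
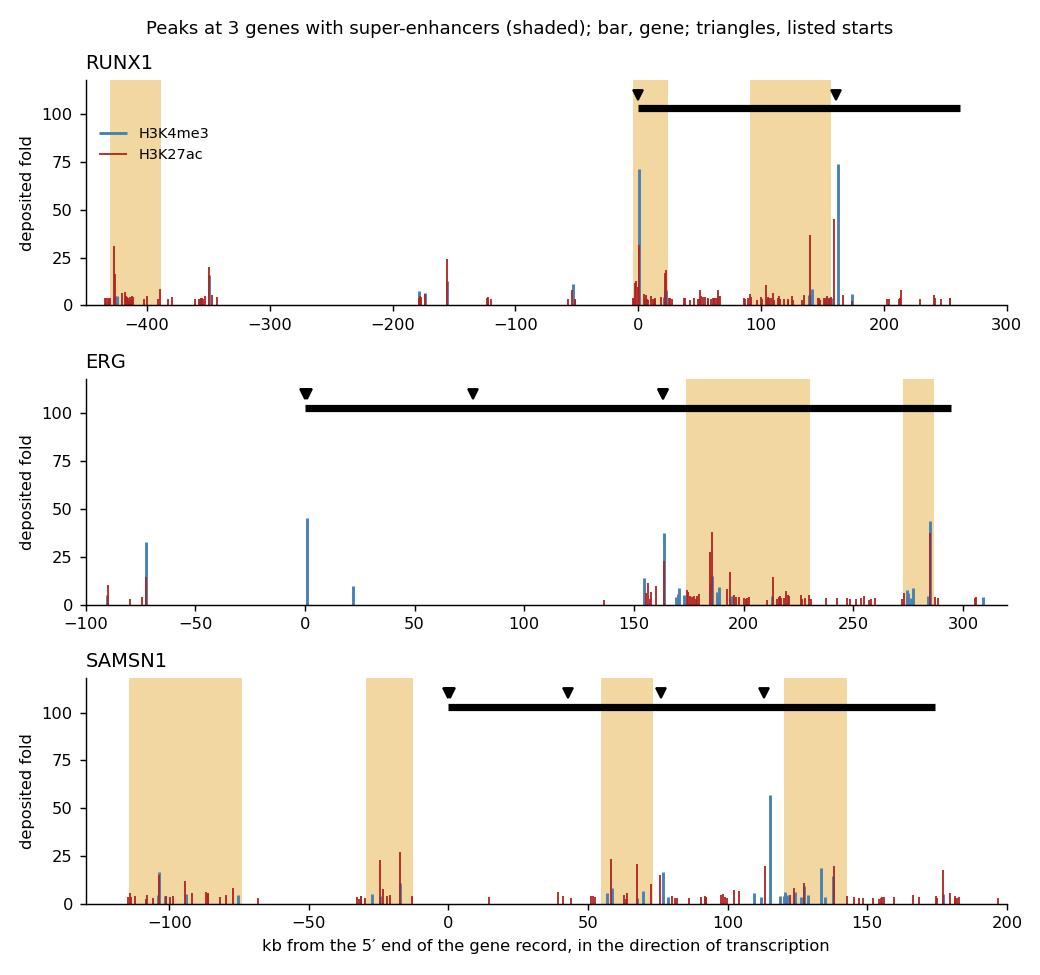
Fold of each H3K27ac (red) and H3K4me3 (blue) peak against the distance in kb from the 5′ end of the gene record, in the direction of transcription, at RUNX1, ERG and SAMSN1; shading marks super-enhancers assigned to the gene, the bar the gene and triangles its listed starts. RUNX1 has both marks at both starts, whereas ERG and SAMSN1 have no H3K27ac peak at the record start and have both marks at internal starts.

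The remaining assignments were to distant genes. The region assigned to SLC5A3, a myo-inositol transporter gene (chr21:33924249-33952210, 28.0 kb, ratio 9.22, rank 523), lay 121 kb from it over the non-coding gene LINC00649. The region assigned to ETS2 (chr21:38969275-39021739, 52.5 kb, ratio 5.12, rank 430) lay 144 kb beyond the gene, over LINC01700 and LINC02940. ETS2 itself had 2 H3K27ac peaks in its body, of which the one at its start was 4063 bp wide (45.9). The pairing of region and gene is the authors', whose list is named as giving expressed genes of the same topological domain, and contact between them was not tested. AGPAT3 had 36 H3K27ac peaks in its body, the next highest number after RUNX1, ERG and SAMSN1, with no super-enhancer, and DYRK1A had 23.

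Most H3K27ac peaks were neither at promoters nor with H3K4me3. There were 883 peaks without H3K4me3 and more than 1 kb from the start of any listed gene (66.3%, interval 63.7% to 68.8%), beside 59.1% elsewhere. Their median fold was 3.90, with 17 fragments at the summit and a width of 300 bp, so many rest on few fragments. The strongest had folds of 17.2 (chr21:37536198-37537980, 11.2 kb from a coding gene) and 16.4 (chr21:33992982-33994742, 77.9 kb from one). Others of this kind lay in AIRE (14.5 over 3098 bp), in DIP2A (12.2) and in TRPM2 (11.9), and in a gene-poor stretch 406 kb from a coding gene (chr21:20591856-20593119, 12.9).

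Of 317 long non-coding RNA genes, 51 had both marks at the start (16.1%, interval 12.4% to 20.5%), beside a background of 20.3%. H3K27ac alone was at 26 (8.20%, interval 5.66% to 11.8%), beside 4.30%. For 112 of the 317 the strand was not given, and both record ends were used. The peaks at the 26 ranged from 11 fragments at LOC105372824 to 181 at LOC105372738, and many rest on few fragments. AATBC and LOC124905033 share 1 of these peaks, as do LOC101928269 and LINC01436. The effect of these limits on the share was not tested. Among genes with both marks, many of the strongest share a peak with a coding neighbour, such as ZNF295-AS1 with ZBTB21 (43.7 and 85.6) and SOD1-DT with SOD1 (33.4 and 89.3). LOC101928126 (38.2 and 14.7), MIR155HG (31.7 and 47.0) and LINC02573 (30.8 and 39.0) had both marks in peaks without a coding start.

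The label of the line was checked on genes of other chromosomes. All 8 myeloid and progenitor genes listed (CD34, SPI1, LYZ, MPO, CEBPA, CD33, KIT and MYB) had both marks at the start, beside the background of 59.1%. None of 5 erythroid genes had both, and 3 of them had neither. Of 5 T cell genes, LCK, CD3E and CD3D had both. Peaks are called over all cells of a culture, so a mark in all cells and a stronger mark in some cannot be told apart.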

How the data were processed

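KBM7 chromatin was sequenced as 1 H3K27ac, 1 H3K4me3 and 1 input library. The submitters' processing notes name build hg38, bedtools 2.20.1 and Bowtie2 2.3.4. The sources used here name neither the peak caller nor the ranking tool, the scaling of the signal or the treatment of reads that fit several places. The deposited peak lists give the authors' score, fold ratio over background, −log10 p and −log10 q and summit offset per peak, and the deposited super-enhancer list gives the authors' H3K27ac and input signal, rank and target. The fold ratio and −log10 p of 100% of rows fit a whole number of fragments and a Poisson background (tolerance 0.01 in −log10 p), from which fragments were taken.

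Overlap means at least 1 bp. Gene records and promoter starts came from RefSeq tables of GRCh38.p14, without a genome sequence; 1 record that starts below 5010000 on chromosome 21 was left out. A gene was marked when a peak came within 1000 bp of its start. No test across peaks was made, and other chromosomes served as background. Named were the targets of every super-enhancer, the 10 peaks of highest fold and 5 widest per mark, the 3 fullest bins and longest empty run, and in each list the 3 genes of highest H3K27ac fold and those without both marks where at most 4; genes outside this rule were named after their values were seen. Members and lists were chosen with earlier results of these data known. Overlap and fragment steps were tested on simulated data. Python 3.11.15, numpy 2.4.6, pandas 2.3.3 and scipy 1.17.1 were used. The B cell marker list is not reported here.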

Additional observations from a re-analysis of the deposited data

How the results depend on the processing

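With 1 library per mark no replicate could be left out. No paired analysis was possible because no mark has more than 1 library. Of 31 alternatives to 9 results, 19 stayed within the counting interval or 1.5 times the count. With the stronger 50% of each list by fold, chromosome 21 had 648 H3K27ac and 209 H3K4me3 peaks, the fullest bin had 81 peaks, and the shares overlapping the other mark were 35.3% for H3K27ac (beside 40.8% elsewhere) and 89.5% for H3K4me3. With −log10 q of at least 5 the H3K27ac share was 37.6%, beside 45.6% elsewhere. With 50% of the peak covered, the shares were 20.4% for H3K27ac and 82.3% for H3K4me3. The share of H3K27ac peaks at gene starts was 14.9% within 2 kb, 21.02% with both ends of all genes and 13.1% with every listed start. The share of coding genes with both marks was 58.2% without keratin-associated protein genes. The last 2 of these settings were chosen after seeing the data. Weak H3K27ac peaks rest on few fragments (the median summit has 19).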
